A study of Homo sapiens with 2 samples.

Results

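The regions described here were p52 ChIP-seq summits in exons of protein-coding genes, away from promoters. A summit was taken when its single base lay in an annotated exon of a protein-coding gene, more than 1 kb from every transcript start of such genes. It also had to lie outside genes annotated as processed pseudogenes. This held for 289 of 1804 summits on chromosomes 1 to 22, X and Y in replicate 1 (16.0%, 95% Wilson interval 14.4 to 17.8) and for 146 of 1225 in replicate 2 (11.9%, 10.2 to 13.9). Exon sequence that met the same rule made up 73.4 Mb, or 2.50% of the known bases of these chromosomes in hg38.

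Both libraries came from MDA-MB-231 cells, an established triple-negative breast cancer line, and formed the only group. The cells were starved in Opti-MEM for 8 h and then kept in 10 ng/ml TWEAK for 48 h, with fresh TWEAK after 24 h. Chromatin was fixed with 1% formaldehyde for 10 min, sheared to between 200 and 500 bp, and precipitated with an antibody that the labels name only as NFKB2, the gene that encodes p52. No untreated, input or non-specific antibody library was analysed here, so no value below is an effect of TWEAK. The study's methods call its cell line ChIP-seq replicates biological, the labels do not say whether these 2 were separate cultures, and the tests below measure the spread among summits within each list. The read depth is unknown, because the files hold only summits with a peak score.

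TWEAK is a cytokine that binds the receptor Fn14 and turns on the non-canonical NF-κB pathway, in which the precursor p100 is cut to p52 and p52 pairs mostly with RelB. NF-κB dimers bind a short DNA element, the κB site, and many well-known sites lie in promoters and enhancers. Exons away from promoters are mostly coding sequence and 3′ untranslated region (3′ UTR), which carry the protein code and the signals for polyadenylation and mRNA stability.

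A κB match was a fit to the general κB consensus of 10 bases on either strand, and it was counted when it lay within 100 bp of a summit. The sequences below show some of the exonic matches that stood near summits of both lists. They are the first 6 by mean rank among the pairs of exonic summits in which the same match was nearest in both replicates. Each was read from hg38, 5′ to 3′ on the strand of the match, with the κB match in capitals and 10 bases on either side in lower case.
GAPDH: tgcccttgagGGGGCCCTCCgacgcctgct
LARS2: cgagcaagtaGGGAAATCCCccgagggcgg
GNAS: gctctaagaaGGGAACCCCCaaatttaatt
RPS6: tactgagtaaGGGGCATTCCtgttacagac
DNAAF9: tagtccagaaGGGAAATCCCctcatttgtg
YWHAG: cagggtaggtGGGGCTTTCCctaatttatc

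The GAPDH sequence lay at chr12:6537846-6537875 on the minus strand, near summits in the coding part of exon 8 of 9 of this glycolytic enzyme gene. The LARS2 sequence lay at chr3:45551614-45551643 on the plus strand, in an annotated 3′ UTR of the mitochondrial leucyl-tRNA synthetase gene that is not in an exon of its MANE Select transcript, the one transcript per gene that the annotation singles out. The GNAS sequence lay at chr20:58910823-58910852 on the plus strand, in the 3′ UTR of the gene for the stimulatory G protein alpha subunit. The RPS6 sequence, from a gene of the small ribosomal subunit, lay at chr9:19378801-19378830 on the minus strand, near summits in coding exon 3 of 6. The DNAAF9 and YWHAG sequences, from a dynein assembly factor gene and the 14-3-3 gamma gene, lay in 3′ UTRs at chr20:3251940-3251969 on the plus strand and at chr7:76327639-76327668 on the minus strand. LARS2 and DNAAF9 held the same 10 letters, and a match of this kind describes the sequence without showing that p52 bound it.

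Most exonic summits had no κB match. A match was found at 34 of 289 exonic summits in replicate 1 (11.8%, 95% Wilson interval 8.54 to 16.0) and at 22 of 146 in replicate 2 (15.1%, 10.2 to 21.8), a mean of 13.4% ± 2.34 (SD, n = 2). Of all exon bases that met the rule, 3.88% had a match within the same distance, below both intervals. Summits in introns away from promoters held a match in 78.5% and 76.2% of cases, intergenic summits in 80.5% and 77.9%, and promoter summits in 55.1% and 62.8%, in replicates 1 and 2. Of all bases of these classes, 2.42%, 2.32% and 5.43% had a match within 100 bp. Exonic summits thus held a match less often than the summits of each of these classes, in both lists. Against introns, the odds ratio was 0.0371 in replicate 1 (two-sided Fisher's exact test, Benjamini-Hochberg adjusted p = 5.03e-68) and 0.0566 in replicate 2 (exact test, adjusted p = 1.67e-34). Against promoters it was 0.110 (exact test, adjusted p = 1.20e-31) and 0.107 (exact test, adjusted p = 2.08e-18), and against intergenic sequence 0.0327 (exact test, adjusted p = 1.83e-84) and 0.0514 (exact test, adjusted p = 1.63e-41). The planned comparisons of shares between classes were adjusted over 24 comparisons, 4 measures by 3 classes by 2 lists. Those of peak scores between classes were adjusted over 6, and the tests chosen after values were seen formed a family of their own. Processed pseudogenes were the class with the lowest κB shares, 4.55% and 7.14%.

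The AP-1 motif was searched as TGACTCA on both strands, since AP-1 factors bind many enhancers together with NF-κB. It was found near 7 exonic summits in replicate 1 (2.42%) and 1 in replicate 2 (0.685%), against 2.84% of the exon bases that met the rule. Introns held it at 11.7% and 11.3% of summits and intergenic sequence at 14.8% and 12.4%. Exonic summits were lower than both in each list, with odds ratios of 0.197 (exact test, adjusted p = 7.64e-06) and 0.0795 (exact test, adjusted p = 2.50e-05) against introns, and 0.152 (exact test, adjusted p = 6.54e-09) and 0.0722 (exact test, adjusted p = 4.11e-06) against intergenic sequence. Against promoters, where 4.16% and 2.78% of summits held the motif, the odds ratios were 0.593 (95% interval 0.245 to 1.44, exact test, adjusted p = 0.317) and 0.329 (0.0534 to 2.03, exact test, adjusted p = 0.290), and neither difference passed the threshold. Both did when start sites of all genes counted as promoters (0.396 and 0.198). Processed pseudogene summits, not tested against exons, also held the motif rarely, at 1.05% and 1.10%.

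**Figure D1:**
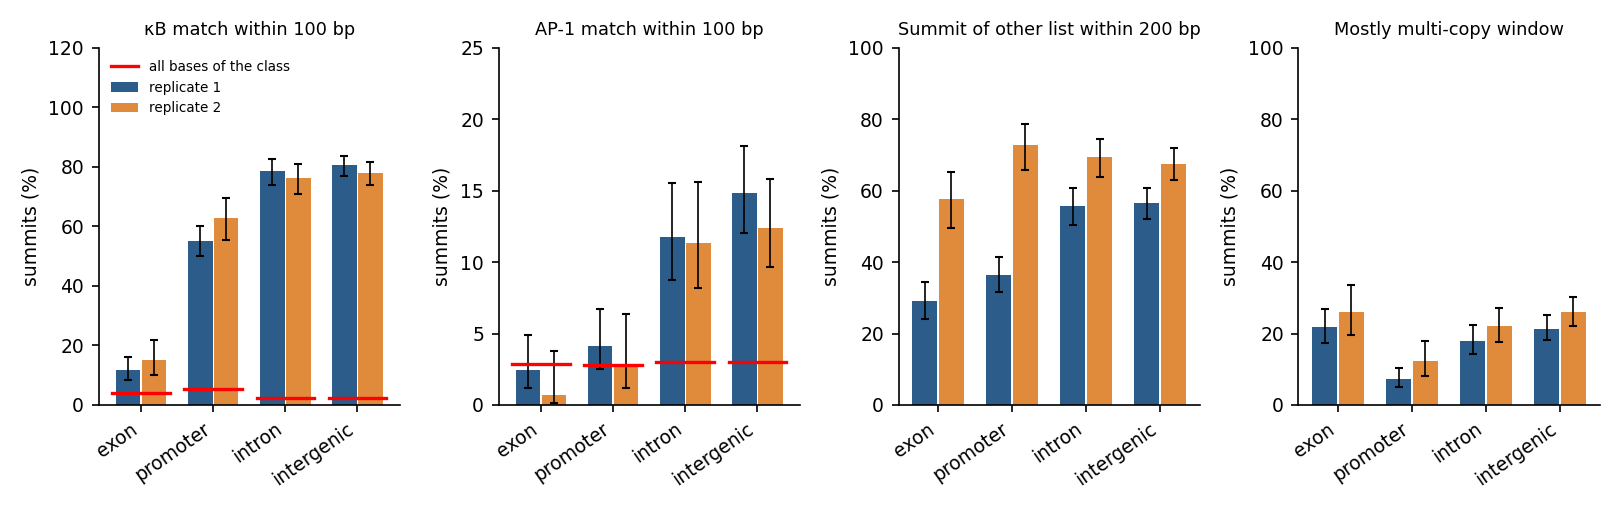
Share of summits (%) with a κB match within 100 bp, with an AP-1 match within 100 bp, with a summit of the other list within 200 bp and with a mostly multi-copy window, for exonic, promoter, intron and intergenic summits of each replicate. Bars are shares, error bars 95% Wilson intervals and red lines the share of all bases of the class with the motif within 100 bp. The exonic κB bars, 11.8% and 15.1%, stand far below those of the other classes, and the AP-1 panel has its own axis to 25%.

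Where an exonic summit had a κB match, the match often lay off the summit. Of the 138 κB matches within 500 bp of exonic summits in replicate 1, 28.3% lay within 50 bp (95% Wilson interval 21.4 to 36.3), and of the 90 in replicate 2, 31.1% did (22.5 to 41.3), where 10.1% of positions lie that close. Introns had 73.8% and 76.9% of their matches within 50 bp. Among summits with a match within 100 bp, the median distance from summit to nearest match was 34.5 and 24.5 bp in exons, and 4.5 and 6.5 bp in introns. A test chosen after these values were seen compared how many of them had the match within 25 bp. This was 14 of 34 exonic summits against 235 of 274 in introns in replicate 1 (odds ratio 0.119, exact test, adjusted p = 8.37e-08) and 12 of 22 against 186 of 215 in replicate 2 (odds ratio 0.188, exact test, adjusted p = 0.000782). Against promoters the odds ratio was 0.265 in replicate 1 (exact test, adjusted p = 0.000652) and 0.435 in replicate 2 (95% interval 0.173 to 1.09, exact test, adjusted p = 0.123).

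LARS2 was among the exonic regions with a well-placed match. Its summits lay 7.5 and 0.5 bp from the centre of the match printed above. In DNAAF9 the distances were 10.5 and 16.5 bp and in RPS6 12.5 and 15.5 bp, so these matches also sat close to both summits. The RPS6 and GAPDH windows were mostly multi-copy, with 48.0% and 48.5% of their stretches of 31 bases occurring once in hg38, whereas those of LARS2 and DNAAF9 were single-copy throughout. In GAPDH the same match stood 51.5 and 42.5 bp away, and in GNAS and YWHAG it stood 73.5 and 78.5 bp from the replicate 1 summit and 16.5 and 25.5 bp from that of replicate 2. The other pairs with the best mean rank and a match in both lists were in CHMP1A, an ESCRT-III gene, KLRD1, which encodes the natural killer receptor chain CD94, UQCC1, an assembly factor of respiratory complex III, and PPDPF. Their matches lay between 2.5 and 47.5 bp from the summit, and in CHMP1A and KLRD1 the nearest matches of the 2 lists were overlapping ones, shifted by 1 base.

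The exonic summits were placed mainly in 3′ UTRs and last exons. In replicate 1, 240 of 289 lay in 3′ UTR and outside coding sequence (83.0%, 95% Wilson interval 78.3 to 86.9) and 45 in coding sequence (15.6%, 11.8 to 20.2). In replicate 2, 114 of 146 lay in 3′ UTR (78.1%) and 30 in coding sequence (20.5%). Of the exon bases that met the rule, 52.5% were 3′ UTR and 32.1% coding, so the summits fell in 3′ UTR more often than those bases do. The 5′ UTR, 1.36% of those bases, held 1 summit and 0 summits, where 0 of 146 has an upper Wilson bound of 2.56%. Exon sequence of transcripts with neither coding nor UTR label there, 14.1% of those bases, held 3 and 2 (1.04% and 1.37%).

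Last exons of the MANE Select transcript held 259 summits in replicate 1 (89.6%, 95% Wilson interval 85.6 to 92.6) and 88.4% in replicate 2, against 49.0% of the exon bases that met the rule. Internal exons held 9 and 10 summits (3.11% and 6.85%), against 22.8% of those bases. Coding summits were also mostly in the last exon, 35 of 45 in replicate 1 and 20 of 30 in replicate 2. The median summit lay 858 bases upstream of the annotated 3′ end of the MANE Select transcript in replicate 1 and 692 in replicate 2. After overlapping exons were merged, those with summits had a median length of 2056 bp and 1748 bp, with no background length computed. In 285 of 289 and 141 of 146 cases the window of 100 bp on either side of the summit lay wholly in exons. This compared with 72.3% of the exon bases that met the rule, which lie 100 bp or more from an exon edge.

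**Figure D2:**
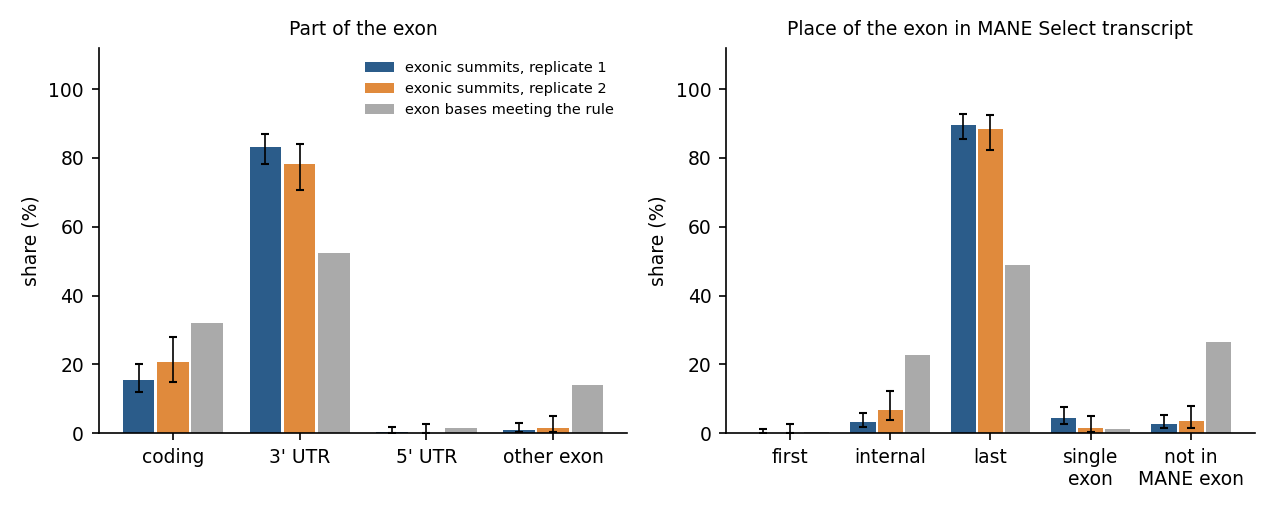
Share (%) of exonic summits of each replicate, with 95% Wilson intervals, and of the exon bases that met the rule (grey, no error), by part of the exon and by place in the MANE Select transcript. Summits stand above the grey bars for 3′ UTR and last exons, 83.0% and 89.6% in replicate 1, and below them for coding sequence and internal exons.

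Exonic summits were weaker than those of the other classes. The score of a summit was read as −log10 q, the significance of its peak as the peak caller gave it, from the file format and a lowest value near 1, since no label states its unit. It rises with read depth and is not a count of molecules. The median was 5.96 in replicate 1 (quartiles 3.35 and 11.9, highest 127) and 5.02 in replicate 2 (2.85 to 9.32, highest 71.6). Intron summits had medians of 11.8 and 9.30, intergenic summits 12.2 and 10.0, and promoter summits 7.98 and 7.89. On the geometric mean, the exonic score was 0.573 times that of introns in replicate 1 (95% interval 0.494 to 0.663) and 0.601 times in replicate 2 (0.504 to 0.718), with adjusted p = 1.5e-05 in a two-sided permutation test in both lists. The unadjusted permutation p was 1e-05, the smallest that 100000 permutations can give. The ratios to intergenic summits were 0.534 and 0.564, with the same permutation p, and those to promoters were 0.798 (permutation test, adjusted p = 0.00243) and 0.725 (permutation test, adjusted p = 0.00118). Among the stronger 50% of each list alone, no strength difference from these classes passed the threshold.

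The windows around exonic summits had a median GC content of 46.3% and 47.8%, near the 45.0% of the exon bases that met the rule, whereas promoter windows had 62.7% and 60.9%.

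The exonic summits of one list had a summit of the other within 200 bp in 84 of 289 cases in replicate 1 (29.1%, 95% Wilson interval 24.1 to 34.5) and in 84 of 146 in replicate 2 (57.5%, 49.4 to 65.3). These shares were lower than those of introns, 55.6% (odds ratio 0.329, exact test, adjusted p = 4.11e-11) and 69.5% (0.595, exact test, adjusted p = 0.0273), and of intergenic summits, 56.5% (0.317, exact test, adjusted p = 1.54e-13) and 67.6% (0.650, exact test, adjusted p = 0.0493). Against promoters, 36.3% and 72.8%, the odds ratio was 0.721 in replicate 1 (95% interval 0.517 to 1.00, exact test, adjusted p = 0.0721) and 0.509 in replicate 2 (exact test, adjusted p = 0.00760). Within 500 bp, the odds ratios of replicate 2 to introns and intergenic sequence were 1.10 and 1.11, neither past the threshold. Among the stronger 50% of each list, none of the differences from introns and intergenic sequence passed, with odds ratios of 0.610 and 0.738 in replicate 1, and the promoter comparison of replicate 1 passed under 5 of the other settings (0.555 to 0.688).

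Summits of the 2 lists stood further apart in exons. Of the summits with a partner within 200 bp, the median distance was 49 bp in replicate 1 and 51 bp in replicate 2, against 9 and 9 bp in introns and 11 and 11 bp in intergenic sequence. A test chosen after these values were seen counted partners within 50 bp. There were 43 of 84 in exons against 188 of 194 in introns in replicate 1 (odds ratio 0.0361, exact test, adjusted p = 1.50e-18), and 42 of 84 against 190 of 196 in replicate 2 (0.0341, exact test, adjusted p = 4.66e-19). Promoters, with 108 of 131 in each list, were also above exons (0.227, exact test, adjusted p = 2.37e-06, and 0.217, exact test, adjusted p = 1.27e-06). Most pairs are the same in both lists, 83 of them with both summits exonic, so the values of the 2 replicates are not independent of each other.

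**Figure D3:**
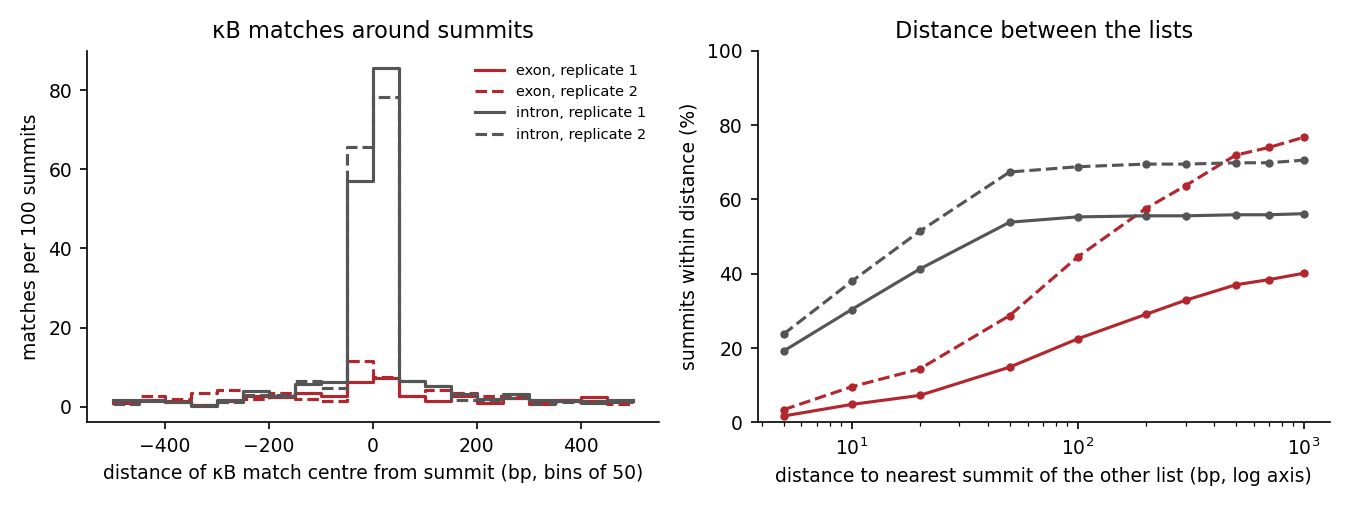
Left, κB matches per 100 summits against distance of the match centre from the summit (bp, bins of 50), and right, percentage of summits with a summit of the other list within a given distance (bp, log axis), for exonic and intron summits of each replicate. Intron summits show a sharp peak of κB matches at the summit and reach their plateau by 50 bp, whereas exonic summits show a low κB peak and rise up to 1000 bp.

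Exonic summits of both lists formed 83 pairs. Their median score was 14.8 in replicate 1 and 7.69 in replicate 2, and 78 of the 83 were higher in replicate 1. The scores ranked alike, with Spearman's rho = 0.79 over the 83 pairs, a description across sites that share 2 libraries. A κB match stood near both summits in 11 pairs, near neither in 65 and near 1 of the 2 in 7.

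EEF1A1, which brings aminoacyl-tRNAs to the ribosome, had scores of 115 and 62.6, with summits in the 3′ UTR 48 bp apart. TMSB4X, which sequesters actin monomers, had 105 and 57.4, and ACTG1, the gamma-actin gene, 73.9 and 41.0. Both had their summits in the 3′ UTR of the last exon, 11 and 15 bp apart. GAPDH had scores of 69.4 and 32.7, CFL1, the gene of the actin-severing protein cofilin, 79.1 and 27.7, and PPIA, which encodes cyclophilin A, 76.2 and 24.9. CD74, the invariant chain of MHC class II, had 62.7 and 32.6, with its summits 160 bp apart. LARS2 had 48.9 and 36.3 with summits 7 bp apart, EEF2, the translocation factor of translation, 44.4 and 24.6, and TUBA1C, an alpha-tubulin gene, 47.5 and 20.5. Only GAPDH and LARS2 of these 10 had a κB match near both summits.

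The strongest exonic summit of each list belonged to a gene whose summits were too far apart to pair. Named after their values were seen, these were TUBA1B, another alpha-tubulin gene, with 127 in replicate 1 and 60.5 in replicate 2 at summits 234 bp apart, and PTMA, the prothymosin alpha gene, with 103 and 71.6 at summits 279 bp apart. Neither had a κB match within 100 bp.

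**Figure D4:**
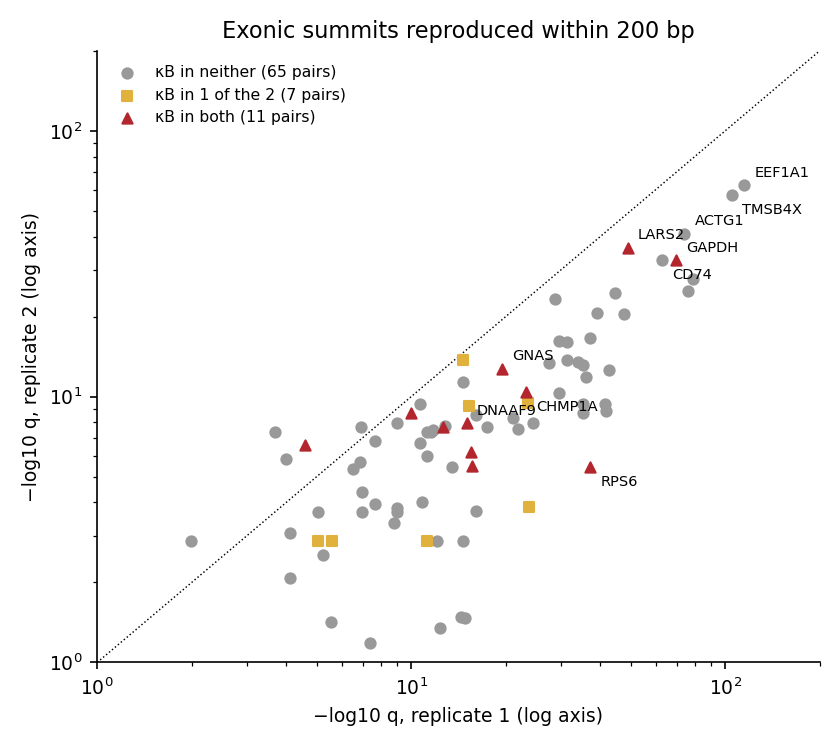
Score (−log10 q, log axes) in replicate 1 on the horizontal axis and replicate 2 on the vertical axis for the 83 pairs of exonic summits within 200 bp of each other, marked by whether a κB match lay within 100 bp of both, 1 or neither summit. The dotted line marks equal scores, and 78 points lie below it, with the higher score in replicate 1. The pairs with κB in both spread over the range of scores, with LARS2 and GAPDH near the top.

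Exonic summits with and without a κB match were compared on score, sharing between lists, place in coding sequence and the share of windows wholly in exons, and no difference passed the threshold over these 8 comparisons. The median score was 8.97 with a match and 5.57 without in replicate 1 (ratio of geometric means 1.30, 95% interval 0.928 to 1.82, permutation test, adjusted p = 0.321). In replicate 2 it was 6.37 and 4.48 (1.24, 0.833 to 1.84, permutation test, adjusted p = 0.492). A partner in the other list was found for 14 of 34 with a match and 70 of 255 without in replicate 1 (odds ratio 1.86, 0.900 to 3.85, exact test, adjusted p = 0.321), and for 16 of 22 and 68 of 124 in replicate 2 (2.09, 0.791 to 5.54, exact test, adjusted p = 0.321). With matches counted out to 250 bp, the odds ratio in replicate 1 was 2.51 and passed (exact test, adjusted p = 0.0257).

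Part of the exonic sequence exists in several copies in the genome. A window was called mostly multi-copy when under 50% of its stretches of 31 bases occurred once in hg38, which can make the placement of reads there uncertain. This held for 63 of 289 exonic summits in replicate 1 (21.8%, 95% Wilson interval 17.4 to 26.9) and 38 of 146 in replicate 2 (26.0%, 19.6 to 33.7). The same share of all exon bases that met the rule was not computed. Promoters had 7.20% and 12.2%, lower than exons (odds ratio 3.55, exact test, adjusted p = 1.94e-07, and 2.50, exact test, adjusted p = 0.00268). The call in replicate 2 was lost when promoters reached 2 kb (1.42) or when starts of all genes counted (0.950). Introns and intergenic sequence did not differ from exons past the threshold, with odds ratios of 1.26 (95% interval 0.857 to 1.87) and 1.03 (0.725 to 1.46) in replicate 1 and 1.25 (0.788 to 1.99) and 1.01 (0.659 to 1.54) in replicate 2. Among the stronger 50% of each list they did, since exonic odds ratios were 3.51 and 3.50 in replicate 1 and 2.68 and 3.33 in replicate 2, all past the threshold. With a window counted as multi-copy when under 90% of its stretches occurred once, exons were lower than intergenic sequence (0.642 and 0.584, both past the threshold).

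Multi-copy windows were common among the strongest exonic summits, at 7 of the 9 that ranked in the top 100 of replicate 1 and 4 of the 4 in replicate 2. No stretch of 31 bases occurred only once around the replicate 1 summits of EEF1A1, PPIA, TUBA1B and PTMA, whereas almost all did around ACTG1 (99.4%) and all around CD74, LARS2 and EEF2. The κB shares were 12.8% (29 of 226) and 15.7% (17 of 108) in windows with 50% or more of their stretches occurring once, and 7.94% (5 of 63) and 13.2% (5 of 38) in multi-copy ones. The part of read placement in the results was not tested.

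In replicate 1, the exonic summits fell in exons of 275 genes, 1.43% of the 19234 protein-coding genes with exon sequence that met the rule. In replicate 2 they fell in 143 genes (0.743%), and 108 genes had one in both lists (0.562%). Of these 108, 52.8% had a processed pseudogene named after them in the annotation, as had 45.1% and 48.3% of the genes of each list, against 9.15% of all 19234. Processed pseudogenes are copies of spliced mRNA inserted in the genome, so a parent gene's exons have near copies elsewhere.

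The NF-κB list had 44 pathway and target genes and the AP-1 list 14 genes of AP-1 and small MAF factors, and 0 of the genes on these lists had an exonic summit in either replicate. Against background shares of 1.43% and 0.743%, counts of 0 in lists this short are no result about them. In 9 other lists of 353 genes together, 76 had one in replicate 1 (21.5%), 51 in replicate 2 (14.4%) and 45 in both (12.7%). All lists were chosen with earlier results of these data known, so these shares are a description and not independent support for an enrichment.

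Among RNA-binding proteins of the hnRNP family and splicing factors, 19 of 46 genes had an exonic summit in replicate 1 and 9 in replicate 2, 8 of them in both. NPM1, the nucleolar protein nucleophosmin, had scores of 29.6 and 16.1, HNRNPA2B1 17.4 and 7.69 with summits 3 bp apart, and HNRNPF 10.7 and 9.37. All but 1 of the 21 summits of replicate 1 in this list lay in 3′ UTR. Cytoskeleton and actin-binding genes had 18 of 53 in replicate 1, 13 in replicate 2 and 12 in both, led by TMSB4X, ACTG1 and CFL1.

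Among translation factors it was 10 of 36, 8 and 7, with EIF4G2, an initiation factor of the eIF4G family, at 16.1 and 8.51 beside EEF1A1 and EEF2. Glycolytic enzymes had 5 of 15, 4 and 4, with PKM, the pyruvate kinase gene, at 31.4 and 16.0 and LDHA, the lactate dehydrogenase A gene, at 35.2 and 8.69. Chaperones had 9 of 28, 7 and 6. Cytosolic ribosomal protein genes had 10 of 78, 5 and 4, with RPL29 at 37.1 and 16.6, RPL14 at 35.9 and 11.8 and RPS2 at 41.4 and 9.37. Of the 11 summits of replicate 1 in ribosomal genes, 8 were in multi-copy windows.

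Fewer genes were hit in the remaining groups. Histone genes had 3 of 28, 2 and 2, and H3-3B, which encodes the replacement histone H3.3, had scores of 4.12 and 3.07. Annexins and S100 proteins had 2 of 27 in each list, the calcium-binding S100A14 at 42.5 and 12.6 and S100A16 at 23.5 and 9.49. Matrix and integrin genes had 0 of 42 in replicate 1 and 1 in replicate 2, ITGA3, an integrin alpha chain, at 1.10. Against background shares of 1.43% and 0.743%, counts of 0 and 1 in 42 genes are no result about this list. A κB match stood at 8 of 85 and 6 of 55 summits in the 9 lists, and at 26 of 204 and 16 of 91 elsewhere.

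**Figure D5:**
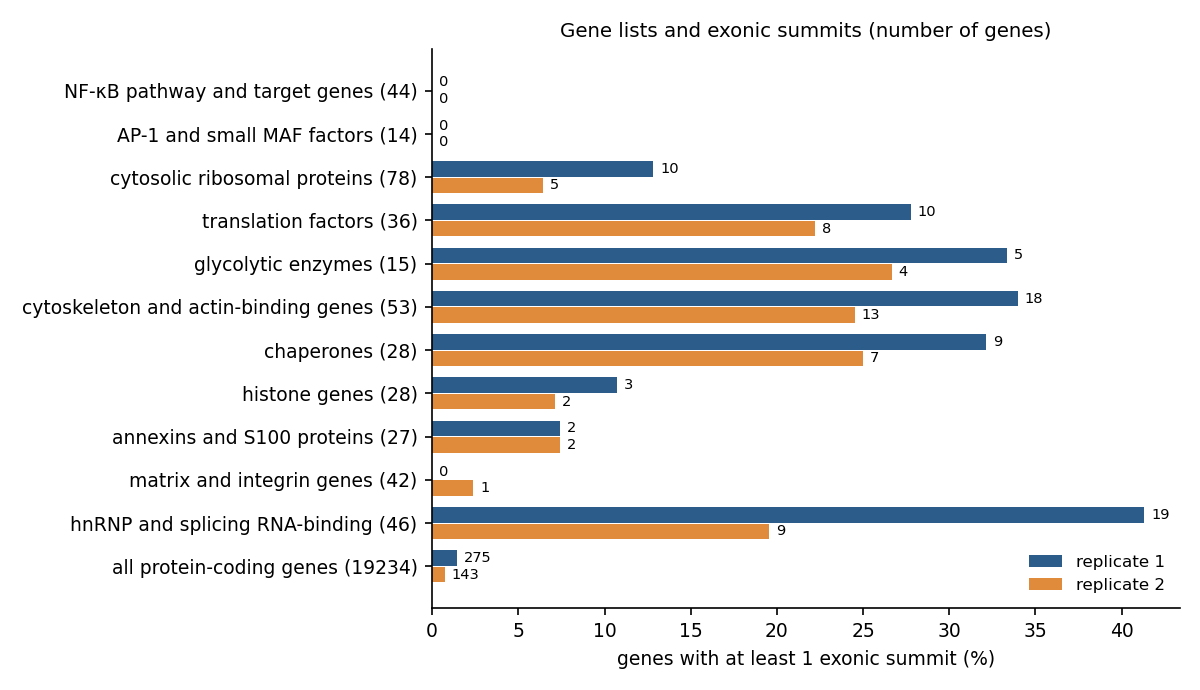
Percentage of the genes of each list with at least 1 exonic summit, by replicate, with the number of genes at the bar end and the size of the list in brackets. The NF-κB and AP-1 lists have no gene with a summit, and 5 of the lists have shares above 20% in replicate 1, against 1.43% of all protein-coding genes. The lists were chosen with earlier results of these data known.

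Several summits in 1 gene were rare, in 20 genes of replicate 1 and 7 of replicate 2, with at most 3. HSP90AB1, the constitutive HSP90 chaperone gene, had 3 in each list, in exons 6, 10 and 12 of 12. Its scores were 41.7 and 8.85 in exon 6, 29.6 and 10.3 in exon 10 and 33.9 and 13.4 in exon 12, and the paired summits lay 34, 7 and 14 bp apart. Thus each of the 3 HSP90AB1 exons recurred in the other list, and it had no summit in an intron. HSP90AA1, the inducible HSP90 gene, had a pair in exon 10 of 11 with scores of 11.5 and 7.37 and a pair in exon 11 with 35.3 and 13.2. In SET, a histone chaperone gene, the last exon held 2 pairs, of 8.99 and 7.92 and of 5.57 and 1.42. YWHAG had 3 summits in replicate 1 and 1 in replicate 2, and EEF2, IGFBP5, which encodes a binding protein of insulin-like growth factors, the keratin gene KRT8 and the initiation factor gene EIF4H had 3 in all. A further 6 genes tied at 3, with lower best ranks.

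At the 1 kb limit, SERF2 was the nearest exonic summit kept in replicate 1, at 1001 bp from a start site and a score of 20.8, and EIF2S3B the nearest left out, at 988 bp and 2.30. In replicate 2 RPS2 was kept at 1016 bp with 9.37, and PABPC3 was left out at 990 bp with 19.6. In all, 173 and 88 exon summits within 1 kb of a start site and 8 and 6 in processed pseudogenes were left out.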

How the data were processed

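p52 ChIP-seq summits of the 2 replicates were used as deposited. The submitters' processing notes name Trimmomatic, Bowtie2, MACS2 and deepTools on hg38, with no versions. The deposited score was read as −log10 q of the authors' MACS2 peaks, given for each replicate apart, although no label states its unit. Per the study's methods, input signal was subtracted in peak calling and peaks in blacklisted regions were then removed. The names of the 2007 and 1467 summits run to peak 4210 and 4732, so 2203 and 3265 numbers are missing. How many of these the blacklist accounts for was not tested. All summits lay within the reference sequences. Summits off chromosomes 1 to 22, X and Y were not used.

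Exons, coding parts and start sites came from GENCODE release 44. The other classes were promoters (within 1 kb of a start site), introns, intergenic sequence and processed pseudogenes. Shares were compared with two-sided Fisher's exact tests (0.5 added to each cell for the odds ratio) and scores with permutation tests of the mean log score (100000 permutations), with Benjamini-Hochberg adjustment and a threshold of 0.05 (Python 3.11.15, scipy 1.17.1, samtools 1.23.1). Scripts were tested on simulated data. Intervals cover counting error only.

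Members and gene lists were chosen with earlier results of these data known. Named genes were the 10 pairs with the best mean rank, the 10 such pairs with κB in both, the 8 genes with the most summits (ties cut by best rank), up to 3 genes with pairs per list, any NF-κB or AP-1 gene, and the summits at the 1 kb limit. The alternatives were other distances for sharing, κB and start sites, the starts of all genes, MANE Select exons, another copy threshold, single-copy windows, 1 summit per gene, the stronger 50% of summits and each list on its own. The unit of comparison was the summit, and summits of 1 gene share their sequence.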

Additional observations from a re-analysis of the deposited data

How the results depend on the processing

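Of 284 recomputed values, 252 kept their side of the threshold and, where they passed it, their direction. These included each κB difference between exons and other classes. A change of direction with neither value past the threshold was counted as kept. Partner summits depended most on the settings. The odds ratio to promoters in replicate 1 passed the threshold with partners within 100 bp (0.570), in single-copy windows (0.631), with start sites taken within 2 kb (0.555), with starts of all genes (0.657) and with MANE Select exons (0.688). In replicate 2 partners within 500 bp gave 0.733 to promoters and reversed values of 1.10 and 1.11 to introns and intergenic sequence, and 1 summit per gene gave 0.661 to intergenic sequence, none past the threshold. In the stronger 50% of each list, the partner odds ratios were 0.610 and 0.738 to introns and intergenic sequence in replicate 1 and 0.333, 0.309 and 0.391 to promoters, introns and intergenic sequence in replicate 2, AP-1 to introns in replicate 2 was 0.124, and none passed, with fewer summits tested. There the multi-copy odds ratios to introns and intergenic sequence became 3.51 and 3.50, and 2.68 and 3.33, and passed. Score ratios there were 1.07, 0.996 and 1.03 in replicate 1 and 1.19, 1.03 and 1.09 in replicate 2, for promoters, introns and intergenic sequence, after a selection on the score itself. Matches out to 250 bp gave 2.51 for partners of exonic summits with κB in replicate 1. Start sites within 2 kb left 11.0% and 8.16% of summits in exons and a multi-copy odds ratio to promoters of 1.42 in replicate 2. Starts of all genes left 14.1% in replicate 1, gave a multi-copy value of 0.950 in replicate 2, and made AP-1 pass against promoters (0.396 and 0.198). With a copy threshold of 90%, exons were less often multi-copy than intergenic sequence (0.642 and 0.584, both past the threshold). The test of κB within 25 bp, added after seeing the data, passed against promoters in replicate 2 in the stronger 50% (0.142). The cause of these changes was not tested. No paired analysis was possible because there was 1 group. Without reads or an input library, depth and local background could not be examined.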

Other observations

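Among exonic summits with no summit of the other list within 200 bp, some also held a κB match close to the summit. They were picked after their values were seen. IER5, an immediate early response gene with a single exon, had a summit in its 3′ UTR with a score of 14.0 in replicate 1 and a match 5.5 bp away, in a window whose stretches of 31 bases all occurred once. ITGA3 had a match 12.5 bp from its replicate 2 summit, which had a score of 1.10. ATF4, a transcription factor of the integrated stress response, had coding summits 404 bp apart, with scores of 9.65 and 2.85, and a match 1.5 bp from the replicate 2 summit only, in a mostly multi-copy window (36.3% of stretches of 31 bases occurring once). LRP1, also picked after its values were seen, had a coding summit with a score of 26.7 in replicate 2. A match lay 0.5 bp from it, in a window whose stretches of 31 bases all occurred once. A replicate 1 summit lay 86 bp away but was not exonic, so LRP1 is not among the pairs above.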
